A study of Mus musculus with 6 samples.

Results

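Sodium entering a cardiomyocyte starts the action potential, pacemaker channels set its rhythm, and the sodium pump restores the ion gradient afterwards. The 6 genes described here were *Scn4b* and *Scn7a* of the sodium channels, *Hcn2* and *Hcn4* of the pacemaker channels, and *Atp1b1* and *Fxyd1* of the sodium pump, chosen by gene symbol from a table of 21776 genes. All 6 were found once each. They were compared between 3 *Trdn-as* KO and 3 WT mouse hearts, with 1 library of total RNA per heart that keeps the strand. *Trdn-as* is a non-coding transcript of cardiomyocytes running antisense to *Trdn*, the gene of the calcium release protein triadin. The KO mice were homozygous for a polyadenylation signal inserted by Cas9 into the first exon of *Trdn-as* in embryonic stem cells, and were backcrossed to C57BL/6. By this construction every cell carries the insertion, although the series' design text speaks of deficiency in cardiomyocytes, where the transcript is made. The labels name no treatment, the series' title gives the hearts as adult, and exact age, sex and the number of stem cell clones behind the KO hearts were not given in the sources used here. Each sample is a separate heart, with 3 hearts in each group.

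Voltage-gated sodium channels consist of a pore-forming alpha subunit and smaller beta subunits, which modulate gating and help to anchor the channel. The HCN channels open on hyperpolarisation, bind cyclic AMP and carry the pacemaker current of the sinoatrial node, where *Hcn4* dominates, whereas *Hcn2* is the more widespread form in ventricular muscle. The sodium pump exchanges sodium for potassium with the energy of ATP. Its catalytic alpha subunit needs a beta subunit to reach the membrane, and FXYD proteins attach to the complex and tune its affinity for sodium.

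Values are normalised read counts, which are reads per gene divided by a size factor of the library and rounded to whole numbers. They sum to between 3.13 and 3.25 M per library, and the estimated number of counted reads was 2.59 to 3.62 M, lowest in WT replicate 1 and highest in KO replicate 1. The lncRNA itself, listed as AC157017.2, was at 1, 0 and 1 in the KO hearts, all within the floor of 3 reads, against 690, 773 and 688 in the WT hearts, as the genotype labels state. WT replicate 1, the library with the fewest reads, also had the highest summed level of 8 ventricular cardiomyocyte genes (14398, against 10954 to 12566 in the other 5 hearts). The part of depth in that level was not tested. Between KO and WT hearts, 4 of 13753 genes tested (0.0291%) passed the two-sided test of limma at a Benjamini-Hochberg adjusted p of 0.05, and none of the 6 genes was among them, also under limma-voom. An unadjusted p under 0.05 was reached by 790 genes (5.74%), and by 1 of the 6 genes, *Scn4b*. The groups did not overlap for 9.07% of all genes tested, with KO above WT for 4.64% and below for 4.44%, and for 0 of the 6 genes. The median log2 fold change of the 6 genes was -0.06, with 2 higher and 4 lower in KO, beside 0.00 over all genes tested. A share of 1 gene in 6 is no result about the group, so each gene is described for itself.

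The precision of each value depended on the reads behind it. Summed over the 6 libraries, *Atp1b1* rested on an estimated 5391 reads, *Scn7a* on 3246, *Fxyd1* on 1280, *Scn4b* on 1262, *Hcn2* on 1188 and *Hcn4* on 598. Counting error alone was 3.20 to 3.73% of the value per library for *Atp1b1* and 8.42 to 13.0% for *Hcn4*, the least covered of the 6. Such errors cover counting alone. No molecular identifiers are described, so reads need not be separate molecules, and the effect of removing duplicate reads was not tested.

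**Figure D1:**
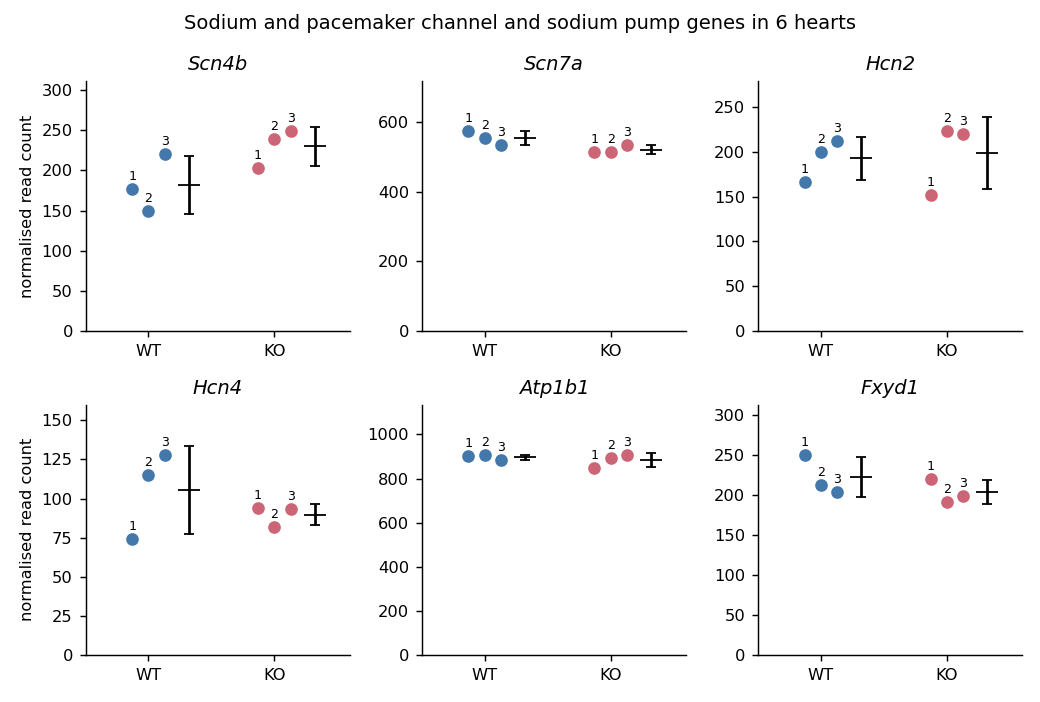
Normalised read counts (vertical axis, from 0) of the 6 genes in WT hearts (blue) and KO hearts (red), with the replicate number above each point and the mean and SD of the 3 hearts as a black bar beside the points. The groups overlap in every panel, *Scn4b* has the largest difference between means, and *Atp1b1* and *Scn7a* have the tightest values.

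*Scn4b* encodes a sodium channel beta subunit with an immunoglobulin fold that is linked to the alpha subunit and modulates its gating. It occupies bases 45138395 to 45154152 of chromosome 9 (GRCm38, plus strand). Normalised counts of *Scn4b* were 203, 239 and 249 in the KO hearts, against 177, 149 and 220 in the WT hearts. WT replicate 3 lay above KO replicate 1, and 2 of the 3 KO hearts lay above all WT hearts. The means were 230.3 ± 24.2 in KO and 182 ± 35.8 in WT (SD, n = 3 each). This corresponded to a log2 fold change of 0.35 (SE 0.12), the largest of the 6 genes, with a 95% interval from 0.11 to 0.60, or 1.08- to 1.51-fold. The unadjusted p was 0.00735, and over all genes the adjusted p was 0.772 (limma), so the difference did not pass the test. Its size rested on single hearts. It ran from 0.22 without WT replicate 2, where the unadjusted p was 0.0827, to 0.50 without WT replicate 3, where the adjusted p was 0.113 (limma). The value stayed above 0 in all 16 alternatives, with adjusted p-values (limma) between 0.113 and 0.999.

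On the log2 scale the SD of *Scn4b* within groups was 0.23, with 0.28 in WT hearts and 0.16 in KO hearts. Counting alone gives 0.10, and differences between separate hearts come on top of it.

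*Scn7a* encodes an atypical sodium channel alpha subunit that is thought to sense sodium concentration rather than to open with voltage, and is known from glia, Schwann cells and lung as well as heart. It occupies bases 66673425 to 66784914 of chromosome 2 (minus strand). Normalised counts of *Scn7a* were 514, 514 and 535 in the KO hearts, against 574, 553 and 535 in the WT hearts. The groups met at 535, the highest KO value and the lowest WT value. The means were 521 ± 12.1 in KO and 554 ± 19.5 in WT (SD, n = 3 each). The log2 fold change was -0.09 (SE 0.06), with a 95% interval from -0.22 to 0.04 and an adjusted p of 0.905 (limma). In fold terms the interval runs from 0.859 to 1.03, the narrowest of the 6 genes but for *Atp1b1*. Each of the 16 alternatives placed KO below WT, between -0.11 and -0.06. Its SD within groups was 0.04 on the log2 scale, beside 0.06 from counting alone.

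Markers of Schwann cells and glia were set beside it. Of 7 such markers 4 were tested, 1 higher and 3 lower in KO with a median of -0.10, and 0 at an unadjusted p under 0.05 (limma). Their summed level was 216 to 319 in KO hearts and 265 to 285 in WT hearts, of which *Erbb3*, a receptor of Schwann cells, gave 105 to 171. The 3 markers below the filter did not share a direction. *Sox10*, the glial transcription factor, was at 9, 7 and 13 in the KO hearts, against 3, 3 and 6 in the WT hearts, *Gfra3* at 6, 5 and 6 against 9, 9 and 13, and *S100b* at 3, 2 and 2 against 6, 3 and 5. No marker was at 0 in all 6 libraries. Fibroblast markers, all 8 tested, were 3 higher and 5 lower in KO with a median of -0.06, and 0 were at an unadjusted p under 0.05. Their summed level was 3997 to 4392 in KO and 4151 to 4643 in WT, highest in WT replicate 1 as *Scn7a* was. *Gsn* (1276 to 1561) and *Dcn* (777 to 958) were the largest parts of that sum. WT replicate 1, the library with the fewest reads, was highest in 5 of the 8 markers, and the part of depth was not tested. The part of either cell type in the *Scn7a* level was not tested. In whole hearts, fewer cells of a type and less RNA per cell cannot be told apart.

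*Hcn2* encodes the pacemaker channel subunit of intermediate speed. It occupies bases 79716634 to 79736108 of chromosome 10 (plus strand), the chromosome of *Trdn-as*, but 46.2 Mb beyond the end of *Trdn*. Normalised counts of *Hcn2* were 152, 223 and 220 in the KO hearts, against 166, 200 and 212 in the WT hearts. In each genotype replicate 1 stood below the other 2 hearts, and the lowest as well as the highest value of all 6 belonged to KO hearts. The means were 198 ± 40.2 in KO and 193 ± 23.9 in WT (SD, n = 3 each), a difference well inside the spread. On the log2 scale the fold change was 0.03 (SE 0.13), with a 95% interval from -0.24 to 0.29, or 0.849- to 1.22-fold, and an adjusted p of 0.991 (limma). Leaving out 1 heart turned its sign. It was 0.21 without KO replicate 1 and -0.08 without WT replicate 1.

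*Hcn4* encodes a slow, strongly cyclic AMP-sensitive pacemaker subunit and marks the sinoatrial node and conduction system. It occupies bases 58823412 to 58863175 of chromosome 9 (plus strand). Normalised counts of *Hcn4* were 94, 82 and 93 in the KO hearts, against 74, 115 and 128 in the WT hearts. The KO hearts lay close together between the WT hearts, of which replicate 1 was the lowest and replicates 2 and 3 the highest of all 6. The means were 89.7 ± 6.66 in KO and 106 ± 28.2 in WT (SD, n = 3 each). The log2 fold change was -0.20 (SE 0.16), with a 95% interval from -0.53 to 0.13, or 0.691- to 1.10-fold, and an adjusted p of 0.913 (limma).

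The value of *Hcn4* turned on WT replicates 1 and 3. Without WT replicate 1, the library with the fewest reads, the log2 fold change was -0.43 (SE 0.13) and p was 0.00444 before and 0.999 after adjustment (limma). Without WT replicate 3 the value was -0.04. The sign was negative in all 16 alternatives, with adjusted p-values (limma) between 0.784 and 0.999. The SD within WT hearts was 0.41 on the log2 scale and that within KO hearts 0.11, beside 0.15 from counting alone.

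Within a library there were 1.62, 2.72 and 2.37 *Hcn2* reads per *Hcn4* read in the KO hearts, against 2.24, 1.74 and 1.66 in the WT hearts. KO replicate 1 had the lowest ratio of all, while KO replicates 2 and 3 had the highest. The KO hearts averaged 2.23 ± 0.563 and the WT hearts 1.88 ± 0.318 (SD, n = 3 each), with p = 0.50 (exact two-sided permutation test, n = 3 each), where 3 hearts against 3 cannot go below 0.1.

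Pacemaker channels are unevenly spread in the heart, so markers of its regions were set beside them. Of 12 conduction system markers 9 were tested, 5 higher and 4 lower in KO with a median of 0.02. Their summed level was 1119 to 1323 in KO hearts and 1109 to 1191 in WT hearts. In that list *Irx3*, a transcription factor of the ventricular conduction system, was the 1 gene at an unadjusted p under 0.05. It had 302, 330 and 335 normalised reads in the KO hearts, against 254, 246 and 277 in the WT hearts, or 0.31 (SE 0.08) as a log2 fold change, where p was 0.00074 before and 0.518 after adjustment (limma). Its groups did not overlap. Over all genes tested 5.74% had an unadjusted p under 0.05 (limma) and 9.07% did not overlap, so 1 gene of 9 is no result about the list. *Isl1*, which marks the sinoatrial node, had at most 3 normalised reads in any heart, and *Shox2*, of the same region, had 13 to 24.

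All 8 atrial markers were tested, 4 higher and 4 lower in KO with a median of 0.00 and 0 at an unadjusted p under 0.05 (limma). Their summed level was 1413 to 1682 in KO hearts and 1501 to 1709 in WT hearts. *Kcnj3* gave by far the largest part of it, at 802 to 882, so the order of the sums leans on that gene. *Bmp10*, a growth factor of the right atrium, was at 0, 8 and 2 in the KO hearts, against 1, 0 and 56 in the WT hearts. WT replicate 3 stood apart in *Bmp10* and had the highest summed level (1709) and the highest *Hcn4* (128). KO replicate 2 had the next highest sum (1682) and ranked first of the 6 hearts in 4 atrial markers (*Myl4*, *Myl7*, *Dkk3* and *Nppa*), second in 3 (*Sln*, *Stard10* and *Bmp10*) and last in *Kcnj3*. That heart had the highest *Hcn2* (223) and the lowest *Hcn4* of the KO hearts (82). The part of atrial or conduction tissue in the *Hcn2* and *Hcn4* values was not tested.

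*Atp1b1* encodes the main beta subunit of the sodium pump in heart, which folds with the alpha subunit and brings it to the cell surface. It occupies bases 164437109 to 164458355 of chromosome 1 (minus strand), and 18.7% of its exonic bases overlap exons of *Nme7* on the opposite strand, which strand-aware counting keeps apart. Normalised counts of *Atp1b1* were 850, 893 and 908 in the KO hearts, against 903, 905 and 884 in the WT hearts. The lowest and the highest value were both from KO hearts, and the 6 hearts differed by no more than 1.07-fold. The means were 884 ± 30.1 in KO and 897 ± 11.6 in WT (SD, n = 3 each). The log2 fold change was -0.02 (SE 0.06), with a 95% interval from -0.14 to 0.10, or 0.907- to 1.07-fold, and an adjusted p of 0.981 (limma). After a correction for read density it was 0.06. Under total scaling it was 0.00, but there the median of all genes moved as far, to 0.02.

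The other beta subunits of the pump were less abundant. *Atp1b2*, the neuronal and glial form, had 106, 110 and 112 normalised reads in the KO hearts, against 93, 103 and 84 in the WT hearts, so that every KO heart lay above every WT heart. Its log2 fold change was 0.23 (SE 0.12), where p was 0.0654 before and 0.851 after adjustment (limma), and it stayed above 0 in all 16 alternatives. *Atp1b3*, a widely made form, had 177, 196 and 201 normalised reads in the KO hearts, against 175, 180 and 202 in the WT hearts, with overlap and a log2 fold change of 0.04 (SE 0.09, adjusted p 0.976, limma).

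*Fxyd1* encodes phospholemman, a small membrane protein that restrains the sodium pump until it is phosphorylated by protein kinase A. It occupies bases 31051678 to 31055708 of chromosome 7 (minus strand). Normalised counts of *Fxyd1* were 220, 191 and 199 in the KO hearts, against 250, 212 and 203 in the WT hearts. KO replicate 1 lay above 2 of the WT hearts, and WT replicate 1 was the highest of all. The means were 203 ± 15.0 in KO and 222 ± 24.9 in WT (SD, n = 3 each). The log2 fold change was -0.12 (SE 0.09), with a 95% interval from -0.32 to 0.08, or 0.802- to 1.05-fold, and an adjusted p of 0.910 (limma). It was -0.03 without WT replicate 1.

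Ventricular cardiomyocyte genes were also highest in that heart. All 8 of these markers were tested and all 8 were lower in KO, with a median of -0.16, and 3 (*Myh6*, *Myl3* and *Tnnt2*) were at an unadjusted p under 0.05 (limma), beside 49.4% lower and 5.74% at such a p over all genes tested. Their summed level was 10954 to 11712 in KO hearts and 11052 to 14398 in WT hearts. WT replicate 1 was highest and WT replicate 2 second in all 8, the libraries with the fewest and next fewest reads. Before division by size factors, estimated reads of *Myh6* ran only from 5282 to 5728 over the hearts. Duplicate reads were removed before counting, and the part of this and of depth in these levels was not tested. Mural cells also make phospholemman. Of their 8 markers, all tested, 2 were higher and 6 lower in KO with a median of -0.05 and 0 at an unadjusted p under 0.05, and their summed level was 5475 to 5784 in KO and 5409 to 6272 in WT, again highest in WT replicate 1. *Abcc9* (2270 to 2725) and *Rgs5* (1602 to 1960) gave most of that sum. Taken singly, WT replicate 1 was highest in 2 of the 8 markers and KO replicate 2 in 3. The part of either cell type in the *Fxyd1* values was not tested.

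The other genes of sodium handling and pacemaking came from lists of 42 genes, of which 36 were in the table and 28 were tested. None passed an adjusted p of 0.05 (limma), also under limma-voom, and 2 (*Scn4a* and *Slmap*, both lower in KO) had an unadjusted p under 0.05, near the 5.74% of all genes. The 28 genes had a median log2 fold change of 0.01, with 16 higher and 12 lower in KO. The groups did not overlap for 3, with KO above WT for *Atp1b2* and below for *Slmap* and *Ank2*, a share near the 9.07% of all genes. Below the filter on low values lay *Scn8a*, *Scn11a*, *Scn2b*, *Scn3b*, *Hcn3*, *Pex5l*, *Atp1a4* and *Fxyd7*. *Scn1a*, *Scn9a*, *Kcne2*, *Atp1b4*, *Fxyd3* and *Fxyd4* were not analysed here.

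Among the 4 tested relatives of *Scn7a* in the sodium channel alpha family 1 was higher and 3 were lower in KO. *Scn4a*, the skeletal muscle form, had 228, 183 and 185 against 206, 247 and 241, or -0.22 (SE 0.10) as a log2 fold change, where p was 0.0389 before and 0.851 after adjustment (limma). KO replicate 1 lay within the WT range of *Scn4a*. The unadjusted p of *Scn4a* stayed under 0.05 in 8 of the 16 alternatives. It was 0.0763 under limma-voom and 0.0565 with the replicate block (limma). The beta subunits *Scn2b* and *Scn3b* lay below the filter.

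All 12 sodium channel partners were tested, 8 higher and 4 lower in KO. *Slmap*, a membrane protein implicated in sodium channel trafficking, had 1376, 1232 and 1227 against 1445, 1402 and 1388, with every KO heart below every WT heart and a log2 fold change of -0.14 (SE 0.06, unadjusted p 0.0215, adjusted p 0.841, limma). Corrected for the mean level of the gene it was -0.09 with an unadjusted p of 0.0819. The 2 tested partners of the pacemaker channels, *Lrmp* and *Mrvi1*, had log2 fold changes of 0.17 (SE 0.22, adjusted p 0.951, limma) and 0.06 (SE 0.10, adjusted p 0.971, limma), with overlap in both. *Hcn3* had at most 4 normalised reads in any heart.

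The 3 tested FXYD relatives were 1 higher and 2 lower in KO, and the 5 sodium exchangers and cotransporters 2 higher and 3 lower, with none at an unadjusted p under 0.05.

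**Figure D2:**
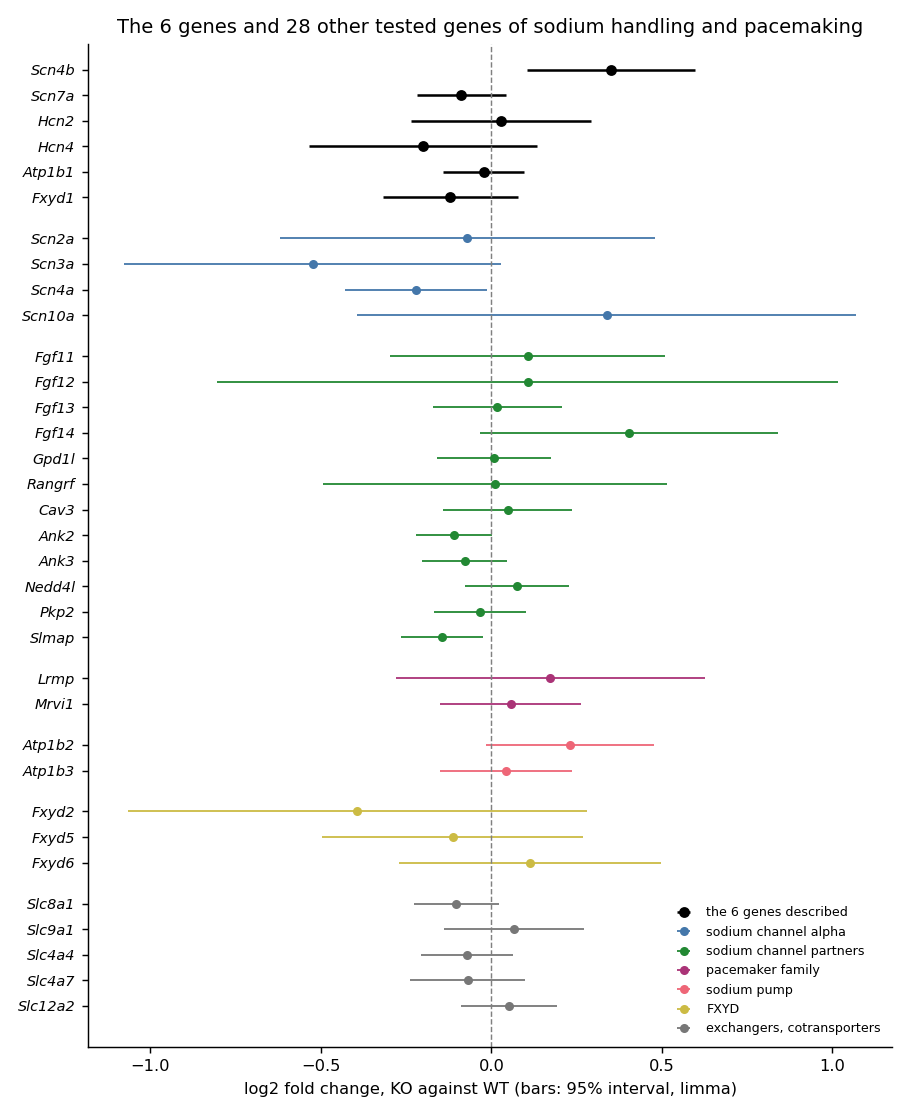
Log2 fold change of KO against WT (horizontal axis) of the 6 genes (black) and of the 28 other tested genes of sodium handling and pacemaking (coloured by list), with bars for the 95% interval from limma. The interval of *Scn4b*, from 0.11 to 0.60, is the 1 interval among the 6 that does not include 0, and *Scn4a* and *Slmap* are the 2 such genes among the other 28, before any adjustment for the number of genes.

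To compare levels between genes, normalised reads were divided by exonic length in kilobases. On this scale *Atp1b1* stood highest of the 6 genes, at 289 ± 7.05 per kilobase (SD, n = 6 hearts), followed by *Fxyd1* (97.2 ± 9.59), *Scn7a* (73.2 ± 3.16), *Hcn2* (61.2 ± 9.30), *Scn4b* (41.4 ± 7.63) and *Hcn4* (16.0 ± 3.32). *Atp1b1* reached the 99.0th percentile of the genes tested and *Hcn4* the 34.1st. The hearts' ranges did not overlap between *Atp1b1* and *Fxyd1*, nor between *Fxyd1* and *Scn7a*, nor between *Scn7a* (70.0 to 78.2) and *Hcn2* (47.6 to 69.8). They did overlap between *Hcn2* and *Scn4b*, which began at 29.9, and *Hcn4* (12.1 to 20.9) stayed below all. The level of *Fxyd1* depended on the length used, because the union of all its annotated exons (2.19 kb) is far longer than its principal transcript (0.62 kb). With the latter it was 343 ± 33.8 per kilobase, beside 345 ± 8.42 for *Atp1b1*, and these did not differ beyond their spread.

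*Atp1b1* and *Fxyd1* were the most abundant measured members of their families in every heart. Per kilobase, *Atp1b1* made up 73.4, 72.7 and 72.5% of the sodium pump beta subunits in the KO hearts, against 75.3, 74.5 and 73.2% in the WT hearts. The groups overlapped narrowly, with means of 72.9 ± 0.455% in KO and 74.3 ± 1.08% in WT (SD, n = 3 each). *Atp1b3* made up 18.8 to 21.6% over the 6 hearts, and *Atp1b2* 6.75 to 6.90% in KO and 5.25 to 6.39% in WT. *Fxyd1* made up 75.8, 77.3 and 77.2% of the measured FXYD proteins in the KO hearts, against 80.0, 74.7 and 77.6% in the WT hearts, where the WT range enclosed the KO range. The share of *Atp1b2* was the 1 of 8 shares without overlap. The shares were computed after the values had been seen and are given as a description, with no test.

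**Figure D3:**
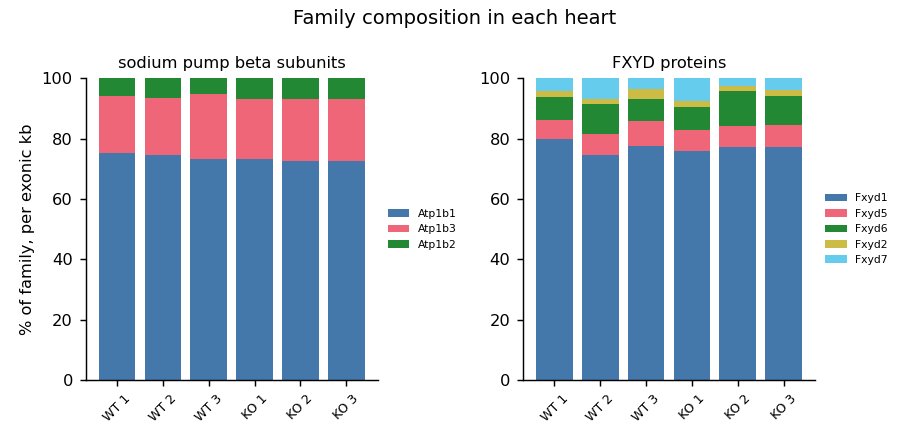
Share of each gene in its family (vertical axis, percent of the family's normalised reads per exonic kilobase) in each heart (WT 1 to 3, then KO 1 to 3), for the sodium pump beta subunits and the FXYD proteins. *Atp1b1*, at 72.5 to 75.3%, and *Fxyd1*, at 74.7 to 80.0%, make up most of their families in all 6 hearts.

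The 6 genes did not share 1 pattern over the hearts. Their values ranged over the 6 hearts by 1.72-fold for *Hcn4*, 1.67-fold for *Scn4b*, 1.46-fold for *Hcn2*, 1.31-fold for *Fxyd1*, 1.12-fold for *Scn7a* and 1.07-fold for *Atp1b1*. The highest heart was KO replicate 3 for *Scn4b* and *Atp1b1*, WT replicate 1 for *Scn7a* and *Fxyd1*, KO replicate 2 for *Hcn2* and WT replicate 3 for *Hcn4*. *Hcn2*, *Scn4b* and *Hcn4* had SDs within groups of 2.45, 2.20 and 2.02 times what counting gives, *Fxyd1* of 1.35 times, and *Atp1b1* and *Scn7a* of 0.772 and 0.689 times.

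The genes nearest in pattern were sought among 9459 genes with a mean of at least 50, by the root mean square difference of their centred log2 values over the 6 hearts. For *Scn4b* these were *Zfp174* (0.06) and *Invs* (0.07), where the deviation of *Scn4b* itself was 0.25. For *Hcn2* they were *Mfap5* (0.05) and *Dgkh* (0.05), against 0.21, and for *Hcn4* the pseudogene *Gm17229* (0.07) and *Mapk10* (0.10), against 0.27. For *Fxyd1* they were *Ndfip1* (0.02) and *Cox6b1* (0.02), against 0.12. For *Scn7a* they were *Mcrip2* (0.01) and *Map3k20* (0.01), against 0.06, and for *Atp1b1* *Lama2* (0.01) and *Rc3h2* (0.01), against 0.03. With 6 hearts and 9459 genes some pattern always lies close, so these names describe the 6 libraries alone.

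**Figure D4:**
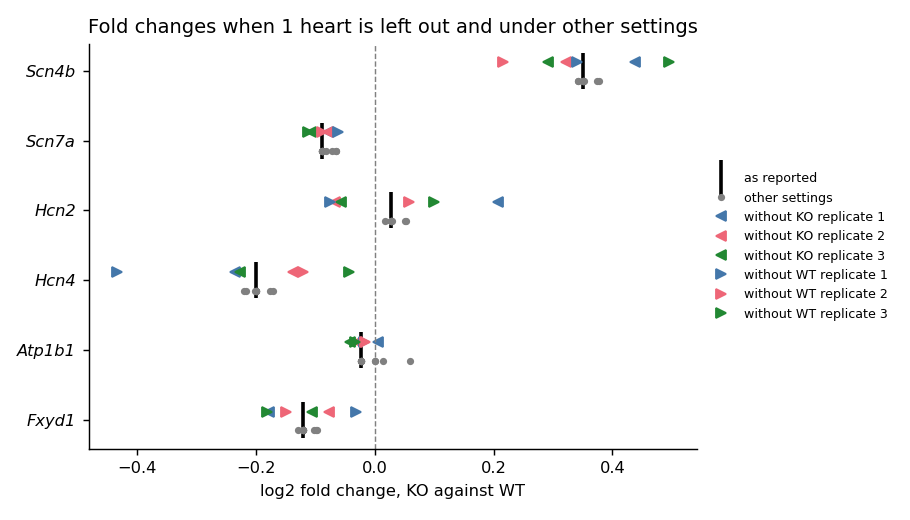
Log2 fold change of KO against WT (horizontal axis) of each of the 6 genes as reported (black bar), when 1 heart is left out (triangles, coloured by replicate number and pointing left for KO and right for WT), and under the other settings (grey points). *Scn4b* stays above 0 and *Scn7a*, *Hcn4* and *Fxyd1* below 0 throughout, *Hcn2* and *Atp1b1* lie on both sides, and leaving out WT replicate 1 moves *Hcn4* from -0.20 to -0.43.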

How the data were processed

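The authors trimmed reads with Trimmomatic 0.39, aligned them to GRCm38 (mm10) with STAR 2.6.1d, and removed duplicates (Picard 2.21.1) and multi-mapping, ribosomal and mitochondrial reads. Reads on exons of the correct strand were counted by the authors with featureCounts 1.6.5, leaving out reads of several genes, and divided by DESeq2 1.18.1 size factors. The deposited score is this normalised count, rounded to a whole number. Raw counts were not analysed here, so limma replaced the count test planned for them. Genes close to a paralog can be under-counted where reads map to both.

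Values were transformed to log2(value + 1). Genes with a mean of at least 10 (13753 of 21776) were fitted with limma 3.58.1 in R 4.3.3, with a mean-variance trend and no covariate, and adjusted by Benjamini-Hochberg. The script was tested on simulated data. Read numbers were estimated from the pattern of skipped and repeated whole numbers that division and rounding leave. Exonic lengths came from GENCODE M21 (GRCm38), which holds 99.8% of the gene identifiers. It gives the same coordinates for 75.2% of genes, *Fxyd1* not among them. The ratio of *Hcn2* to *Hcn4* within a library was compared by exact permutation (scipy 1.17.1).

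The 6 genes and all lists were chosen with earlier results of these data known. Some genes and ratios of these lists are not reported here, and counts leave them out. Named were the 6 genes, their main partners, list genes with an unadjusted p under 0.05, genes of the sodium and pacemaker lists below the filter, the 2 genes nearest in pattern to each, and the genotype check. Other list genes with values (*Erbb3*, *Sox10*, *Gfra3*, *S100b*, *Gsn*, *Dcn*, *Abcc9*, *Rgs5*, *Lrmp*, *Mrvi1*, *Ank2*, *Isl1*, *Shox2*, *Bmp10*, *Myl4*, *Myl7*, *Dkk3*, *Nppa*, *Sln*, *Stard10* and *Kcnj3*) were chosen after their values were seen. The alternatives tried were a fit by limma-voom, scaling by median of ratios or by total, other filters, a pseudocount of 0.1, a replicate block, no trend, loess corrections for mean level and read density, and leaving out each library. Lengths of principal transcripts were added after seeing the data.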

Additional observations from a re-analysis of the deposited data

How the results depend on the processing

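None of the 6 genes and none of the 28 others passed an adjusted p of 0.05 (limma) in any of the 16 alternatives. *Scn4b*, *Scn7a*, *Hcn4* and *Fxyd1* kept their direction in all 16, *Hcn2* in 13 and *Atp1b1* in 11. The log2 fold change of *Atp1b1* was 0.00 under limma-voom (0.00113) and total scaling (0.000677), where the median of all genes moved alike, from 0.00 to 0.03 and 0.02, and was 0.013 after a loess correction for mean level, 0.060 after one for read density and 0.0051 without KO replicate 1, and that of *Hcn2* was -0.07, -0.06 and -0.075 without KO replicate 2, KO replicate 3 and WT replicate 1. Leaving out 1 heart gave 0.22 to 0.50 for *Scn4b*, -0.11 to -0.06 for *Scn7a*, -0.075 to 0.21 for *Hcn2*, -0.43 to -0.04 for *Hcn4*, -0.042 to 0.0051 for *Atp1b1* and -0.18 to -0.03 for *Fxyd1*. For the log2 ratio of *Hcn2* to *Hcn4* it gave 0.07 to 0.45.

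Over all genes 4 passed. With at least 10 in every sample 2 passed, under a filter that removes AC157017.2 (1, 0 and 1 in the KO hearts). Without the mean-variance trend 1 passed. Leaving out 1 heart gave 2 to 32, with 32 without KO replicate 1 and 7 without WT replicate 3. The cause was not tested. Of the 6 genes, 2 had an unadjusted p under 0.05 without WT replicate 1 (*Scn4b* and *Hcn4*), and 0 without WT replicate 2 and without the trend. Of the 28 others between 1 and 4 did. The labels give no pairing of hearts by replicate number. Deviations of same-numbered hearts correlated across genes at 0.05, -0.07 and -0.03, which shows no pairing but cannot exclude one. With the number as a block 4 genes passed over all genes, *Scn4b* had a log2 fold change of 0.35 (SE 0.10, adjusted p 0.656, limma), and no call among the 6 genes changed. With 3 hearts a group, the 95% interval of the least covered gene, *Hcn4*, reached from 0.691- to 1.10-fold.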
